A study of Mus musculus with 24 samples.

Results

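The comparison described here set all 8 cerebellar tumours of hGFAP:GnasCKO mice against all 5 samples of normal adult cerebellum, 13 of the 24 arrays of the series, across all measured genes. The arrays were chosen by their sample titles. The tumour mice carry a conditional knockout (CKO) of Gnas driven by hGFAP, the human GFAP promoter, and were of mixed C57BL/6 x 129 strain. The tumours were dissected at endpoint, at ages that the labels leave out. The adult samples were wild type. Adult arrays 1 and 2 came from postnatal day 60 and adult array 5 from a mouse recorded only as adult, all 3 of the mixed strain, whereas adult arrays 3 (postnatal day 95) and 4 (postnatal day 122) were C57BL/6. The whole tumour or cerebellum was used with no sorting of cells. The series also holds 8 Oligo1:GnasCKO tumours and 3 developing cerebella. They entered only the filter for genes bright enough to test and the estimate of the spread.

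Gnas encodes Gsα, the G protein subunit through which many receptors switch on adenylyl cyclase. The cyclic AMP made by that enzyme activates protein kinase A, which holds back Sonic Hedgehog signalling, the mitogenic pathway of granule neuron precursors. Precursors that stay in this pathway can give rise to medulloblastoma, a tumour of the cerebellum. Division, hedgehog and mature neuron genes have been described for these tumours, and the comparisons below concern other signalling pathways, molecules of the cell surface, metabolism and the tissue around the tumour cells.

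Levels are log2 intensities, so a difference of 1 is a 2-fold change. Values under the table's median of 7.61 are dim, and a difference with a dim side may be understated. The deleted gene was lower in every tumour: Gnas lay at 7.38, 8.00 and 9.33 (lowest, median and highest of the 8 tumours), against 9.83, 9.80, 9.69, 9.87 and 9.78 in adult arrays 1 to 5. The difference was -1.64 (standard error, SE, 0.29, n = 8 and 5, limma adjusted p = 0.000112). Of 31 Gnas probe sets 22 were above the table's median in every adult array, and which exons were deleted is not stated in the labels.

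The tumours were less uniform than the adult samples. Correlations between pairs of tumours, a description across genes, ran from 0.620 to 0.990, and were at least 0.831 without tumour 5. Those between adult arrays were at least 0.962, and the highest of any pair of the 13 arrays was 0.990, between tumours. Correlation with the adult mean, another description, ran from 0.591 in tumour 7 to 0.938 in tumour 5. It was 0.978 to 0.984 for the adult arrays. Tumour 5 stood apart and had the highest Gnas value. Its genes above the table's median were the fewest: 7903, against 9187 to 9362 in other tumours and 8774 to 9188 in adult arrays. Its median over all probe sets was the lowest (7.372, against 7.542 to 7.668 in the other tumours and adult arrays). Relative to the adult mean, its average was inside the adult range for lists such as microglia (0.31) and the circadian clock (-0.01). For others, such as the pentose phosphate pathway (-0.67) and the unfolded protein response (-0.51), it was below every adult array. Counts are therefore also given without it. The array names form 2 series, tumours 1 to 4 with adult arrays 3 to 5 and tumours 5 to 8 with adult arrays 1 and 2, and the labels do not say what separates them. In a bulk sample, fewer cells of a type and less RNA per cell cannot be told apart.

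Of 10983 genes bright enough to test, 5936 passed the test at an adjusted p of 0.05, which is 54.0% of them. In the tumours 2659 rose (24.2%) and 3277 fell (29.8%), and the median difference over all tested genes was -0.02. At least 2-fold changes numbered 1011 rises (9.21%) and 932 falls (8.49%). Every tumour lay above every adult array for 566 genes (5.15%) and below for 1548 (14.1%). Without tumour 5 the test called 3599 rises and 3425 falls. Within the first array series 2689 genes rose and 2609 fell, and within the second, with fewer arrays and tumour 5 among them, 1030 and 1648.

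The genes named first are the largest changes without overlap between the groups, leaving out the cell cycle, hedgehog and mature neuron lists. Some genes of those lists changed more, such as Atoh1 (5.83), Insm1 (5.77), Nhlh1 (5.69) and Mki67 (5.38) upward and Grm4 (-2.92) and Slc17a7 (-2.64) downward. The largest of the rises so chosen was that of Lcn2, a secreted acute phase protein that binds iron carriers. It lay at 10.01, 11.67 and 12.12 in the tumours and at 4.75, 5.74, 4.66, 5.29 and 5.29 in the adult arrays, a difference of 6.38 (SE 0.41, 83.0-fold, adjusted p = 1.64e-09), and unlike most genes it was high in tumour 5 too. Hsd11b2 and Gpnmb were next in this choice and are described with their groups. Among the 25 largest rises without overlap were further Olig3, a transcription factor of the embryonic rhombic lip (4.80, SE 0.86), Draxin, a secreted axon guidance protein (4.79, SE 0.45), the high mobility group protein Tox3 (4.18, SE 0.30), Igfbpl1 (4.06, SE 0.46), and Sox11 (4.02, SE 0.37) and Neurod4 (3.93, SE 0.40), transcription factors of immature neurons. Olig3 rested on 1 probe set and was at 4.79 in tumour 5, close to the adult range of 3.86 to 4.45. The other large rises were those of surface receptors described next and of genes of mitosis and of DNA replication or repair, from Ube2c (4.76) over Knl1, Pclaf, Dtl, Kif18b, Foxm1, Esco2, Kif20a, Aspm, Neil3 and E2f8 to Ncapg (3.90).

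Falls were smaller in size than rises. Dao, the peroxisomal oxidase of D-amino acids, fell most among the genes so chosen: it lay at 4.43, 5.69 and 8.28 in the tumours and at 9.61, 9.73, 9.31, 9.28 and 9.40 in the adult arrays (-3.35, SE 0.62, adjusted p = 0.000155). Car7, a carbonic anhydrase of neurons, and Atp2a3, a calcium pump of the endoplasmic reticulum, were next among them (-3.02, SE 0.43, and -2.59, SE 0.51). Flt3, a receptor tyrosine kinase best known from blood precursors, lay at 4.83, 6.14 and 8.11 in the tumours and at 8.57, 8.44, 8.33, 9.25 and 8.92 in the adult arrays (-2.38, SE 0.41). Itpka, which phosphorylates inositol trisphosphate (-2.49, SE 0.35), and Shank1, a scaffold of excitatory synapses (-2.40, SE 0.58), were also among the 25 largest falls without overlap. The others were the genes Car4, Scn2b, Slc12a5, Spock3, Ppargc1b and Cntn6, described with their groups, and Olfm3, Tuba8, Trank1, Shisa6, Tfap2b, Clstn2, Tmem59l, Strip2, Pip5k1b, Nrip3, Gpr22, Plxdc1 and Rnf112, whose falls lay between those of Atp2a3 and Rnf112 (-2.37).

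The lists described below hold 1460 entries, of which 1061 were tested, 336 were too dim and 63 had no match on the array. Their shares of called genes are drawn beside the shares over all genes. Shares near those over all genes say nothing particular about a list, and there the values of single genes are what is described. Examples were 26.5% higher and 32.4% lower for tetraspanins and surface antigens and 26.9% and 30.8% for heparan sulphate genes. Antioxidant genes gave 22.9% and 31.4%, and brain matrix genes 23.8% and 28.6%. The share of falls alone was near for endothelial genes (28.6%), iron and haem (29.2%) and growth factor ligands (28%). Counts of falls without overlap stand beside 14.1% over all genes tested.

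**Figure D1:**
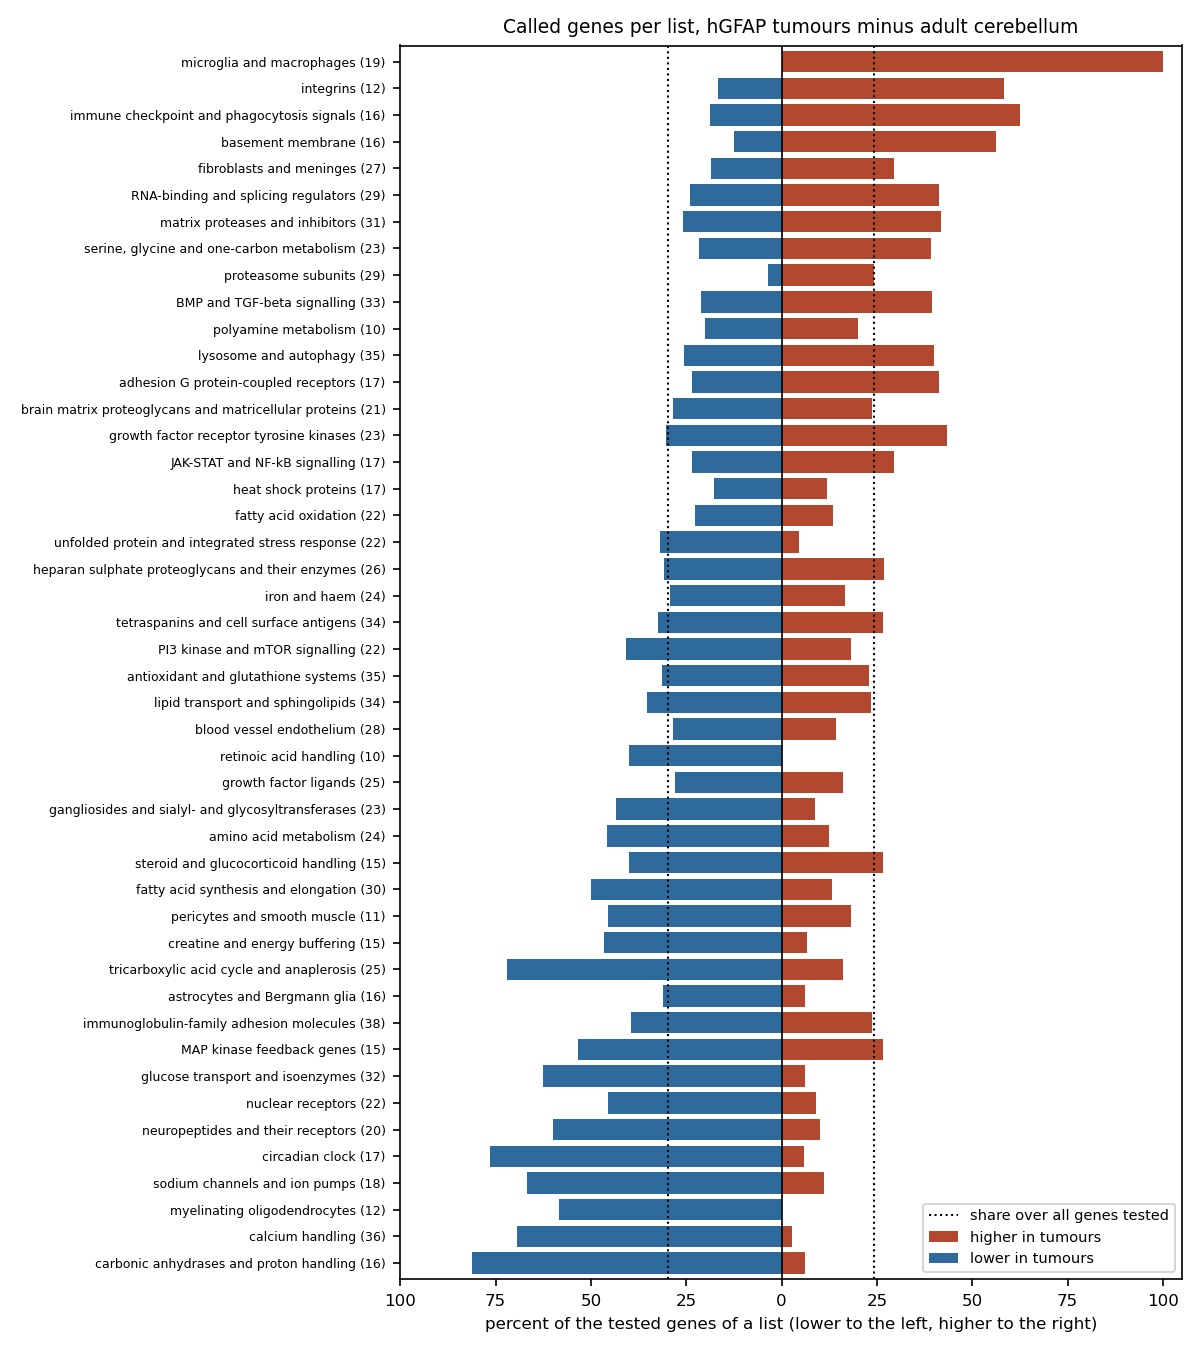
Percent of the tested genes of each list that rose (right, red) or fell (left, blue) in the 8 hGFAP tumours against the 5 adult arrays, for lists with at least 10 tested genes (number in brackets), ordered by the median difference. The dotted lines mark the shares over all 10983 genes, 24.2% higher and 29.8% lower. Microglia and macrophage genes stand at one end, and carbonic anhydrases, calcium handling and the circadian clock at the other.

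Among the large rises so chosen were those of Sstr2, Dcc, Cd24a and Chrna3, surface receptors and adhesion molecules known from immature or migrating neurons. Gpnmb, a glycoprotein of macrophages that is described with them, rose more. Cd24a, a small glycoprotein anchored in the membrane of immature neurons, lay at 8.46, 11.38 and 11.72 in the tumours and at 6.45, 6.00, 6.26, 7.18 and 7.88 in the adult arrays (4.31, SE 0.40, 19.9-fold, adjusted p = 1.12e-07). Sstr2, a receptor for somatostatin that couples to inhibitory G proteins, lay at 7.36, 11.14 and 11.50 in the tumours and at 6.02, 5.60, 5.98, 6.01 and 6.21 in the adult arrays (4.72, SE 0.51, 26.3-fold, adjusted p = 6.15e-07). Both genes belong to the choice without overlap, and tumour 5 was the lowest tumour in each.

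Dcc, the netrin receptor to which Draxin binds, lay at 8.44, 11.50 and 11.66 in the tumours against 6.04, 7.01, 5.49, 6.03 and 7.32 in the adult arrays (4.63, SE 0.40, adjusted p = 4.23e-08). Chrna3, a subunit of nicotinic acetylcholine receptors, lay at 7.68, 11.33 and 11.71 against 7.00, 6.69, 6.82, 6.54 and 7.33 (4.07, SE 0.64, adjusted p = 3.11e-05). Both were chosen for groups that do not overlap, so the lack of overlap is no result. Tumour 5 (7.68) was close to the highest adult Chrna3 value (7.33).

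Of 34 tetraspanins and other surface antigens tested (7 more were too dim), 9 rose, 11 fell and 14 did not pass, with a median of -0.11, and without tumour 5 there were 12 rises and 11 falls. Within the first array series there were 9 and 10, within the second 4 and 8. Beside Cd24a, Lrig3, a membrane protein with leucine-rich repeats, rose by 3.30 (SE 0.43), from 6.20 to 6.86 in the adult arrays to a tumour median of 10.49, with tumour 5 at 7.13. The tetraspanins Cd53, a leukocyte protein (2.62, SE 0.38), Cd9 (1.79, SE 0.40) and the lysosomal Cd63 (1.45, SE 0.32) also rose, each with tumour 5 within or below the adult range. Tspan9 (-1.90, SE 0.41) and Tspan17 (-1.32, SE 0.27) fell with no overlap. Dpp6, a partner of potassium channels (-1.36, SE 0.44), fell with overlap.

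Integrins couple cells to the matrix. Of 12 tested, 7 rose, 2 fell and 3 did not pass (median 0.78), while 14 were too dim to test, and without tumour 5 there were 8 rises and 2 falls. The first array series gave 6 and 1 and the second 4 and 1. Itgb2, the shared beta chain of leukocyte integrins, lay at 6.48, 7.69 and 7.92 in the tumours and at 5.98, 5.41, 6.13, 5.96 and 6.17 in the adult arrays (1.62, SE 0.23, adjusted p = 1.28e-05). Itga9, which binds tenascin and osteopontin, rose by 1.57 (SE 0.28), Itgam, a chain of macrophage integrins, by 1.32 (SE 0.24) and Itgb1, the beta chain of most matrix-binding integrins, by 1.06 (SE 0.21). Itga3, a laminin-binding chain, went the other way (-1.60, SE 0.35, adjusted p = 0.000657), at 6.20, 6.98 and 8.23 in the tumours against 8.67 to 8.86 in the adult arrays. Itgb5 was the other fall (-0.49, SE 0.17).

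Adhesion molecules of the immunoglobulin family changed in both directions: of 38 tested (2 too dim), 9 rose, 15 fell and 14 did not pass (median -0.45; 10 and 16 without tumour 5, 8 and 12 in the first array series, 5 and 1 in the second). Cntn6, a contactin of neurons, lay at 6.75, 7.54 and 9.58 in the tumours and at 10.12, 10.24, 10.49, 10.04 and 10.33 in the adult arrays (-2.38, SE 0.49, adjusted p = 0.000426). Thy1 (-1.99, SE 0.53), Kirrel3 (-1.87, SE 0.43) and Mcam, a molecule of vessel walls (-1.20, SE 0.22), fell too. The synaptic adhesion molecules Sdk1 (1.56, SE 0.15) and Igsf9 (1.54, SE 0.20) rose with no overlap, and tumour 5 lay with the other tumours for both. Icam1 (1.39, SE 0.25) and Vcam1 (0.97, SE 0.25), which bind leukocytes, rose with overlap through tumour 5.

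Adhesion G protein-coupled receptors gave 7 rises, 4 falls and 6 genes that did not pass among 17 tested (4 too dim, median 0.11; 7 and 5 without tumour 5, 7 and 5 in the first array series, 3 and 0 in the second). Adgrg1, also named GPR56, a receptor of neural precursors, was among the steadiest rises: the tumours lay at 11.40, 11.53 and 11.81, the adult arrays at 10.33, 10.57, 9.44, 10.21 and 10.22 (1.40, SE 0.15, adjusted p = 5.79e-07). Every tumour, tumour 5 included, was above every adult array. Adgre1, a defining antigen of mouse macrophages, rose by 2.75 (SE 0.35), and Adgra3 by 1.37 (SE 0.30). The largest falls were those of Adgra1 (-0.96, SE 0.30), Adgrf5 (-0.66, SE 0.19) and Adgrl1 (-0.47, SE 0.10).

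**Figure D2:**
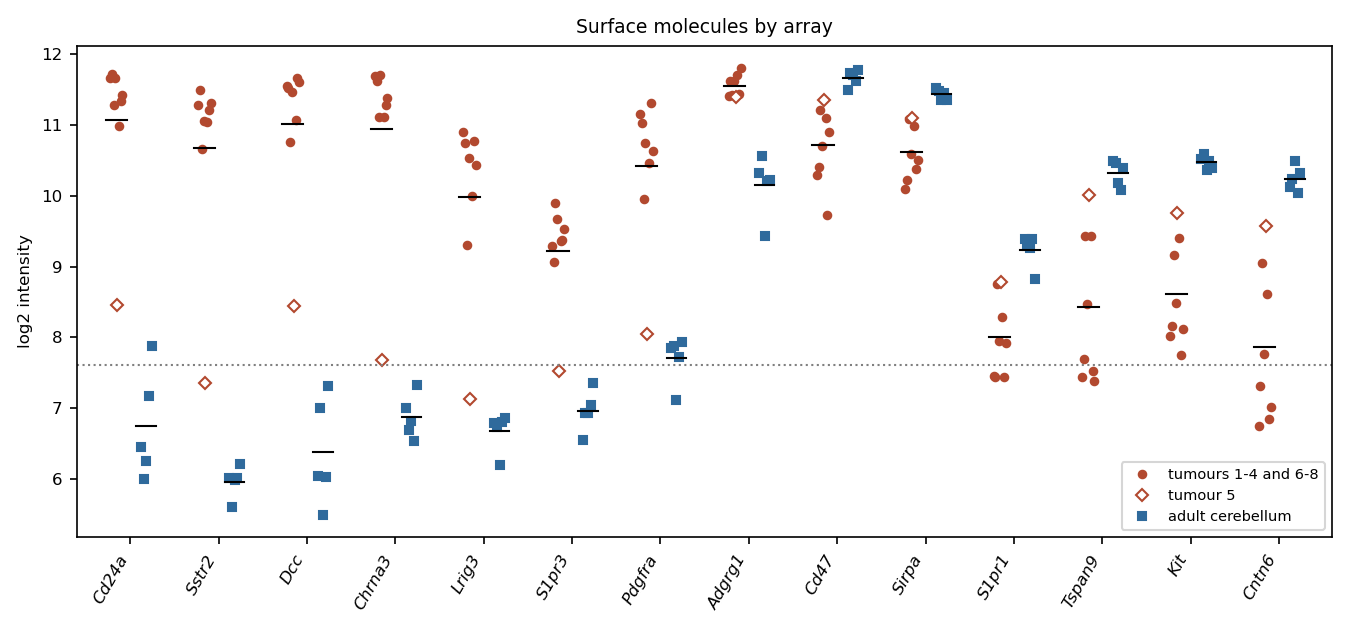
Log2 intensity of 14 surface molecules in each array: filled circles, tumours 1 to 4 and 6 to 8; open diamonds, tumour 5; squares, the 5 adult arrays; horizontal bars, group means; dotted line, the filter value of 7.61. In the genes that rose tumour 5 lies below the other tumours (close to them for Adgrg1), and in the genes that fell it lies near the adult arrays.

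Signals that steer phagocytes and lymphocytes moved in both directions. Of 16 tested, 10 rose, 3 fell and 3 did not pass (median 0.73; 11 and 3 without tumour 5, 11 and 3 in the first array series, 8 and 1 in the second), and 15 were too dim. Clec7a, a phagocyte receptor for fungal glucan, lay at 4.23, 7.33 and 8.03 in the tumours and at 4.05, 3.87, 4.07, 3.44 and 4.17 in the adult arrays (3.23, SE 0.43), with tumour 5, at 4.23, just above the adult range. The receptors for antibody Fcgr2b (2.51, SE 0.40) and the shared chain Fcer1g (2.38) rose likewise, as did Lgals9, a galectin (1.54, SE 0.25), and Cd276, a B7 family ligand (0.59, SE 0.15, with overlap).

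The 3 falls were Cd47, Sirpa and Nectin1. Cd47 is the signal by which cells keep macrophages from engulfing them, and it lay at 9.73, 10.81 and 11.35 in the tumours against 11.50, 11.74, 11.71, 11.63 and 11.78 in the adult arrays (-0.96, SE 0.23, 1.94-fold, adjusted p = 0.00141). Sirpa, its receptor on phagocytes and also on neurons, lay at 10.10, 10.55 and 11.10 against 11.52, 11.49, 11.36, 11.45 and 11.35 (-0.81, SE 0.18, adjusted p = 0.000897). Nectin1, an adhesion molecule of synapses and junctions, fell by 0.98 on the log2 scale (SE 0.17). In all 3 every tumour was below every adult array, and tumour 5 was the closest to them.

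Heparan sulphate proteoglycans, which hold growth factors at the cell surface, and their enzymes gave 7 rises, 8 falls and 11 genes that did not pass among 26 tested (4 too dim, median -0.08; 8 and 7 without tumour 5, 7 and 5 in the first array series, 5 and 2 in the second, and 5 falls without adult array 5). Gpc3, a glypican, lay at 6.26, 7.55 and 8.76 in the tumours and at 5.81, 5.73, 5.51, 6.20 and 5.71 in the adult arrays (1.70, SE 0.32, adjusted p = 0.000194). Gpc2, a glypican of developing neurons, rose by 2.27 (SE 0.43), with tumour 5 at 5.66, inside the adult range, and the other tumours at 7.29 or more. Sulf2, which trims sulphate from heparan chains outside the cell, rose by 1.31 (SE 0.26), and Ndst3, which adds it, fell by 1.46 (SE 0.48). The sulphotransferases Hs3st1 (-1.17, SE 0.31) and Hs6st2 (-1.10, SE 0.20) fell too.

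Enzymes of gangliosides and other glycans gave more falls than rises: of 23 tested (5 too dim), 2 rose, 10 fell and 11 did not pass (median -0.31; 2 and 11 without tumour 5, 2 and 8 in the first array series, 1 and 6 in the second). St8sia5, which adds a further sialic acid to gangliosides, had a tumour median of 8.79 against 11.38 to 11.72 in the adult arrays (-2.49, SE 0.75, adjusted p = 0.00765), with tumour 5 at 11.50. St6gal1, which caps glycoproteins with sialic acid, rose by 1.66 (SE 0.25), and Mgat5b by 1.01 (SE 0.19). The sialyltransferase St3gal2 (-1.03, SE 0.20) and Ugt8a, which makes the galactolipids of myelin (-0.79, SE 0.27), fell.

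Neuropeptides and their receptors were mostly dim. Of 50 on the array 20 were tested, of which 2 rose, 12 fell and 6 did not pass (median -0.79; 3 and 12 without tumour 5, 3 and 11 in the first array series, 1 and 5 in the second, and 4 rises without tumour 7). Sstr2 was joined by Calcrl, a receptor for adrenomedullin and a Gs-coupled one, which lay at 9.73 in the median tumour against 7.48 to 7.75 in the adult arrays (1.76, SE 0.55), with tumour 5 at 5.87, below them. Penk, the enkephalin precursor (-2.60, SE 0.69), Crhr1, a receptor for corticotropin-releasing hormone (-2.56, SE 0.42), and Ntsr2, a neurotensin receptor (-2.10, SE 0.50), fell. Crhr1 alone of these had no overlap, at 5.90, 6.75 and 8.35 in the tumours and 9.38, 9.34, 9.82, 9.47 and 9.25 in the adult arrays.

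Genes of electrical activity and calcium handling gave more falls than rises. Of 18 sodium channel and ion pump genes 2 rose, 12 fell and 4 did not pass (3 too dim, median -0.90; 2 and 14 without tumour 5, 2 and 10 in the first array series, 2 and 2 in the second). Scn2b, a channel subunit, lay at 6.60, 8.14 and 9.77 in the tumours and at 10.81, 10.94, 11.07, 10.74 and 10.68 in the adult arrays (-2.54, SE 0.65, adjusted p = 0.00252). Slc12a5, the chloride extruder KCC2 of mature neurons, fell by 2.43 (SE 0.66), and the channel Scn2a fell by 1.82 (SE 0.46). The rises were the channel Scn3a, known from immature neurons, at 6.27, 6.64 and 7.34 against 4.67, 4.90, 4.85, 4.73 and 4.88 (1.88, SE 0.29, adjusted p = 2.18e-05), and the subunit Scn3b (1.93, SE 0.21), both without overlap and with tumour 5 above the adult arrays.

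Of 36 calcium handling genes 1 rose, 25 fell and 10 did not pass (2 too dim, median -1.09; 2 and 29 without tumour 5, 1 and 22 in the first array series, 2 and 7 in the second), and 12 of the falls had no overlap. Itpr1, the inositol trisphosphate receptor of Purkinje cells (-2.01, SE 0.59), Ryr1, a ryanodine receptor (-2.14, SE 0.28), the channel subunit Cacna2d2 (-2.14, SE 0.57) and the calcium binding protein Calb2 (-2.23, SE 0.53) were examples. The rise was Cacna2d1, another channel subunit, at 9.56, 10.92 and 11.22 in the tumours and 9.14, 9.45, 9.28, 9.23 and 9.32 in the adult arrays (1.44, SE 0.20, adjusted p = 1.05e-05). Markers of mature granule and Purkinje neurons moved with these lists: 24 of 25 fell (17 in the first array series, 7 in the second), with a mean per tumour between -3.68 and -0.58 relative to the adult mean against -0.10 to 0.11 in the adult arrays. The part of neuron content in these falls, and in those of neuronal enzymes below, was not tested.

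Growth factor receptors changed in both directions. Of 23 receptor tyrosine kinases 10 rose, 7 fell and 6 did not pass (6 too dim, median 0.07; 10 and 8 without tumour 5, 10 and 5 in the first array series, 5 and 3 in the second). Pdgfra, a receptor for platelet-derived growth factors, lay at 8.05, 10.69 and 11.31 in the tumours and at 7.85, 7.88, 7.12, 7.73 and 7.94 in the adult arrays (2.71, SE 0.37, 6.56-fold, adjusted p = 7.5e-06). Egfr rose by 1.66 (SE 0.34), the collagen receptor Ddr2 by 2.04 (SE 0.38) and Fgfr4 from 5.27 to 5.96 in the adult arrays to a tumour high of 7.84. Tumour 5 overlapped the adult arrays for Egfr and Ddr2.

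Kit, the stem cell factor receptor, which cerebellar interneurons carry, lay at 7.75, 8.32 and 9.76 in the tumours and at 10.52, 10.59, 10.37, 10.50 and 10.40 in the adult arrays (-1.87, SE 0.28, adjusted p = 2.07e-05). Tyro3, a receptor of the family that clears dying cells (-1.08, SE 0.16), and Ror1 (-0.95, SE 0.28) fell as well with no overlap. Ret, the receptor of glial cell line-derived factors (-1.16, SE 0.31), fell with overlap. Fgfr2 (-0.77, SE 0.22) and Fgfr1 (-0.53, SE 0.11) fell as well.

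Of the ligands, 25 were tested (8 too dim), of which 4 rose, 7 fell and 14 did not pass (median -0.30; 5 and 9 without tumour 5, 4 and 9 in the first array series, 2 and 4 in the second). Pdgfc, a ligand of Pdgfra, lay at 7.73, 8.53 and 8.88 in the tumours and at 7.12, 6.56, 6.54, 7.06 and 7.21 in the adult arrays (1.58, SE 0.22, adjusted p = 8.6e-06), and Pdgfa, another, rose by 1.13 (SE 0.24) with overlap. Fgf5 (1.46, SE 0.47) and Pros1, which binds the receptor Tyro3 (1.51, SE 0.29), rose too. Vegfa, the main growth factor of blood vessels, fell: it lay at 7.81, 8.31 and 9.06 against 9.43, 9.19, 9.62, 9.74 and 9.40 (-1.09, SE 0.19, 2.12-fold, adjusted p = 9.71e-05). Hbegf, a ligand of Egfr (-1.32, SE 0.14), and Nrg3, a ligand of Erbb4 (-1.64, SE 0.59), fell too. Fgf12, which stays inside neurons (-1.40, SE 0.31), and Nrg2 (-1.39, SE 0.32) were also lower.

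Feedback genes of the MAP kinase pathway, which rise and fall with its activity in many tissues, gave 4 rises, 8 falls and 3 genes that did not pass among 15 tested (2 too dim, median -0.45; 4 and 8 without tumour 5, 4 and 5 in the first array series, 1 and 5 in the second). The phosphatase Dusp10 (-1.51, SE 0.25) and Spry3 (-1.74, SE 0.37) fell without overlap, the transcription factor Etv1 fell with it (-1.32, SE 0.34), and the ERK phosphatase Dusp6 rose by 0.72 (SE 0.22) with overlap. Spry1 (0.69, SE 0.18) and Dusp4 (0.97, SE 0.37) rose too. Dusp4 lost its call without tumour 1, 2, 3 or 4 or adult array 1, 2, 4 or 5 at an adjusted p up to 0.0888. In the PI3 kinase and mTOR list 4 rose, 9 fell and 9 of 22 did not pass (3 too dim, median -0.17; 5 and 8 without tumour 5, 4 and 6 in the first array series, 3 and 3 in the second). The adaptor Irs1, which links insulin receptors to PI3 kinase, lay at 8.48, 9.99 and 10.98 in the tumours and at 8.37, 8.23, 8.16, 8.30 and 8.46 in the adult arrays (1.58, SE 0.25). Of the lipid phosphatases that oppose PI3 kinase, Inpp5d, found in blood cells, rose by 1.67 (SE 0.23) and Inpp4b fell by 1.66 (SE 0.29), both with no overlap. The kinase Akt1 rose (0.85, SE 0.16), and Rictor (-0.55, SE 0.13) and Rptor (-0.51, SE 0.11), the partners that define the mTOR complexes, fell.

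In the BMP and TGF-beta pathway, which counters precursor division in the cerebellum, 13 of 33 tested genes rose, 7 fell and 13 did not pass (11 too dim, median 0.17; 16 and 8 without tumour 5, 12 and 5 in the first array series, 3 and 2 in the second). The receptor Tgfbr1 (1.48, SE 0.31) and the ligand Tgfb2 (1.31, SE 0.25) rose with tumour 5 below the adult arrays. The target genes Id1 (1.05, SE 0.19) and Id3 (1.20, SE 0.31) rose too, Id1 at 7.35, 7.69 and 8.74 against 6.78, 6.88, 6.81, 6.81 and 6.54. Id4 of the same family fell (-0.81, SE 0.28). The inhibitor Smad7, itself a target (-0.92, SE 0.17), and the ligand Bmp6 (-1.37, SE 0.33) fell with no overlap. Tgfbr3, a co-receptor, fell as well (-1.01, SE 0.28), and Gdf10, a ligand of Bergmann glia (-0.93, SE 0.37), lost its call without tumour 1, 2, 3, 4 or 8 or adult array 1, 2, 3 or 4 at an adjusted p up to 0.0796.

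In cytokine signalling, of 17 tested JAK-STAT and NF-kB genes 5 rose, 4 fell and 8 did not pass (14 too dim, median 0.00; 5 and 5 without tumour 5, 4 and 3 in the first array series, 2 and 1 in the second). Osmr, the oncostatin M receptor, lay at 7.63, 8.29 and 8.92 in the tumours and at 6.07, 6.33, 5.97, 6.62 and 6.82 in the adult arrays (1.94, SE 0.26, adjusted p = 5.78e-06), and Stat3, which it activates, rose by 0.51 (SE 0.14) with no overlap. Tnfrsf1a, a receptor for tumour necrosis factor, rose by 0.92 (SE 0.19), and Stat5b (-1.28, SE 0.26) and Stat2 (-0.86, SE 0.21) fell. Nfkbia, an inhibitor of NF-kB (0.53, SE 0.21), rose but lost its call without tumour 6, 7 or 8 or adult array 3, 4 or 5 at an adjusted p up to 0.0928. Lifr, a receptor chain for leukaemia inhibitory factor (-0.68, SE 0.27), lost it without tumour 1, 2, 4 or 7 or adult array 1, 2, 4 or 5 at an adjusted p up to 0.0884.

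Of the nuclear receptors 2 rose, 10 fell and 10 of 22 did not pass (10 too dim, median -0.50). Without tumour 5 there were 3 rises and 13 falls, and 1 rise without any other single array. By array series, 2 and 8 were counted in the first and 1 and 3 in the second. Rora, which Purkinje cells need to mature, lay at 9.43, 10.08 and 11.71 in the tumours and at 11.89 or more in all 5 adult arrays (-1.60, SE 0.39, adjusted p = 0.00173). Esrrg, a receptor that drives mitochondrial genes (-1.98, SE 0.48), and Rara, a retinoic acid receptor (-1.44, SE 0.17), fell, and Rxra, the partner of many of them, rose by 0.86 (SE 0.16). The other rise, Nr2c1 (0.83, SE 0.35), was lost whichever single array other than tumour 5 was left out, at an adjusted p up to 0.0867. Of 10 genes that make, carry or degrade retinoic acid none rose, 4 fell and 6 did not pass (3 too dim, median -0.27; 2 rises and 3 falls without tumour 5, 1 fall in the first array series and 2 in the second), among the falls the synthetic enzyme Aldh1a1 (-1.35, SE 0.46), the carrier Crabp2 (-0.81, SE 0.21) and the degrading enzyme Cyp26b1 (-0.72, SE 0.13), the latter pair dim in all 13 arrays.

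The circadian clock is a loop in which Arntl (BMAL1) and Clock drive genes through E-boxes, and the products of some of these switch the drivers off. Of 17 clock genes tested 1 rose, 13 fell and 3 did not pass (1 too dim, median -0.82; 1 and 15 without tumour 5, 1 and 12 in the first array series, 1 and 2 in the second). Arntl lay at 6.77, 7.16 and 7.49 in the tumours and at 8.19, 8.21, 8.61, 8.48 and 8.63 in the adult arrays (-1.31, SE 0.18, 2.47-fold, adjusted p = 7.41e-06). Dbp, an output gene of the loop, lay at 8.05, 8.47 and 9.12 against 10.39, 10.63, 10.07, 10.07 and 9.87 (-1.72, SE 0.19, 3.29-fold, adjusted p = 9.22e-07). For both the groups did not overlap, and tumour 5 lay among the other tumours, at 7.30 and 8.78. Over all genes 1648 of 10983 fell within the second array series.

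Falls that were smaller or more variable were measured for Hlf (-1.41, SE 0.33), for Ciart, a repressor of the loop (-1.42, SE 0.46), for Per3 (-0.86, SE 0.21) and for Clock (-0.48, SE 0.09). The nuclear receptors of the loop, which repress Arntl, were Nr1d1 at 8.26, 9.45 and 11.64 in the tumours against 11.65, 11.71, 11.57, 11.81 and 11.36 in the adult arrays (-1.95, SE 0.50), and Nr1d2 (-0.67, SE 0.22). In tumour 5 Ciart (10.14), Hlf (10.18) and Nr1d1 (11.64) were at adult levels. Csnk1e, a kinase that marks Period proteins for breakdown, was the rise, at 11.02, 11.48 and 11.70 against 10.74, 10.54, 10.66, 10.36 and 10.57 (0.82, SE 0.10, adjusted p = 1.7e-06). The labels give no time of day of dissection, and the adult arrays themselves ran from 8.70 to 10.33 for Ciart, so the part of sampling time in these falls was not tested.

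The canonical E-box is the sequence through which the loop is known to act. Promoters that hold it are printed for 3 clock genes that were called lower. Whether their falls follow from that of Arntl was not tested. Among the 17 genes 14 had a promoter window in RefSeq (GRCm38.p6, 250 bases before to 50 after the start site), and 5 of these held CACGTG, a palindrome that reads the same on both strands. Counted by window, since a gene can have several, 6 of the 22 windows of these genes held it, against 7.15% of all 32851 windows. Below are the 250 bases before the start site, 5′ to 3′ on the gene's strand, with the E-box in capitals. Ciart, on the minus strand of chromosome 3 (chr3:95882229-95882478), holds 3 copies that begin 116, 58 and 44 bases before the start. Bhlhe41 (chr6:145865421-145865670, minus strand) and Tef (chr15:81802423-81802672, plus strand) hold 1 each, 153 and 127 bases before it. Tef has another window (chr15:81811164-81811413), not printed, with 1 copy 138 bases before its start.
Ciart: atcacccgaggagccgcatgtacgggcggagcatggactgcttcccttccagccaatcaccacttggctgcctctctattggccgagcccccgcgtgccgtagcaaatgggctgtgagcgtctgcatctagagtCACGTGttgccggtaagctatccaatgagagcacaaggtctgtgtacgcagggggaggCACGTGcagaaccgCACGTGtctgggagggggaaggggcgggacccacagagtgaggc
Bhlhe41: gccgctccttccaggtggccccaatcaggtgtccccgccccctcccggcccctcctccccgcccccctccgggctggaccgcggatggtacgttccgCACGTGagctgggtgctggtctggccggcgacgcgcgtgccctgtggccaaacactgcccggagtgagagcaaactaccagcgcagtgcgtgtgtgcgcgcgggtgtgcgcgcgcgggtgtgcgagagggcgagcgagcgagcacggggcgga
Tef: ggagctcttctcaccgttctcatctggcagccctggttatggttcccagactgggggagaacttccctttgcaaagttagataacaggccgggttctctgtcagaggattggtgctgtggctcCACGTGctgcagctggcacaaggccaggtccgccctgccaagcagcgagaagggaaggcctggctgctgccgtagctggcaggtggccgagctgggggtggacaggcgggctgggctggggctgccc
Bhlhe41, a repressor of the loop, lay at 7.05, 7.86 and 8.67 in the tumours and at 9.10, 8.84, 8.27, 8.53 and 8.69 in the adult arrays (-0.82, SE 0.29, adjusted p = 0.0196), and Tef, an output factor like Dbp, at 7.91, 8.46 and 9.44 against 9.62, 9.74, 8.78, 9.09 and 9.24 (-0.73, SE 0.24, adjusted p = 0.0148). Both overlapped, and each lost its call when 1 array was left out, Bhlhe41 without adult array 1 (adjusted p = 0.0588) and Tef without adult array 2 (adjusted p = 0.0522). Cry1 and Per1 were the other genes with the motif, and Dbp and Arntl had none in these windows, which says only that the letters are not there.

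Of the regulators of RNA 29 were tested (5 too dim), of which 12 rose, 7 fell and 10 did not pass (median 0.26; 12 and 7 without tumour 5, 10 and 6 in the first array series, 3 and 1 in the second). Ptbp1, a splicing repressor that neurons shut off as they mature, lay at 9.74, 11.24 and 11.55 in the tumours and at 9.62, 9.82, 9.94, 9.76 and 9.74 in the adult arrays (1.31, SE 0.21, adjusted p = 3.17e-05), its relative Ptbp3 rose by 1.00 (SE 0.16) and the neuronal protein Elavl2 by 1.42 (SE 0.27). Rbfox1, a splicing factor of mature neurons, fell by 0.93 (SE 0.26). Khdrbs3 rose as well (1.13, SE 0.24), and the neuronal splicing factors Srrm3 (-0.87, SE 0.16) and Celf4 (-0.85, SE 0.25) fell with no overlap.

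Of 29 proteasome subunits 7 rose, 1 fell and 21 did not pass (2 too dim, median 0.17). These counts leaned on single arrays: 14 rose without tumour 5 and 4 without adult array 3 or 4, and the fall was lost without adult array 2. The first array series gave 10 rises and no fall, the second no rise and 1 fall. Psme1, an activator that interferon induces, rose by 0.66 (SE 0.21). Rises were also called for Psma1 (0.50, SE 0.13) and the other activator chain Psme2 (0.72, SE 0.24), the last not without adult array 3 (adjusted p = 0.0578). The fall was Psmc5 (-0.32, SE 0.10; adjusted p = 0.0511 without adult array 2). Of 22 genes of the unfolded protein and integrated stress response 1 rose, 7 fell and 14 did not pass (6 too dim, median -0.07; 5 and 7 without tumour 5, 4 and 3 in the first array series, 1 and 3 in the second). The rise was Edem1, which hands misfolded glycoproteins over for breakdown (1.05, SE 0.17). Vldlr (-0.77, SE 0.16), the transcription factor Xbp1 (-0.65, SE 0.17) and Ppp1r15a, which lets translation resume (-0.52, SE 0.15), fell with no overlap. Of 17 heat shock genes 2 rose, 3 fell and 12 did not pass (1 too dim, median -0.01; 5 and 3 without tumour 5, 3 and 2 in the first array series, 0 and 2 in the second, and 1 rise without tumour 7 or 8 or adult array 2, 3 or 4), with Hspa12a the largest fall (-1.73, SE 0.34). The inducible chaperone Hspa1a (-0.93, SE 0.24) and Hsf1, the factor that induces it (-0.55, SE 0.13), were the other falls, and Dnaja1 (0.34, SE 0.10) and Hsp90ab1 (0.20, SE 0.08) the rises. Hsp90ab1 lost its call without tumour 7 or 8 or adult array 1, 2, 3 or 4 at an adjusted p up to 0.0878.

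In energy metabolism most of the calls were falls, while Hk2, Idh1 and Idh2 rose. Of 32 genes of glucose transport and glycolysis 2 rose, 20 fell and 10 did not pass (6 too dim, median -0.49; 2 and 24 without tumour 5, 2 and 19 in the first array series, 1 and 10 in the second), and 10 of the falls had no overlap. Hk2, the hexokinase of dividing and tumour cells, lay at 5.64, 8.65 and 9.19 in the tumours and at 6.21, 5.73, 5.54, 6.35 and 5.84 in the adult arrays (2.37, SE 0.39, 5.16-fold, adjusted p = 4.68e-05). Tumour 5 was in the adult range, and the other 7 tumours were above it. Eno2, the neuronal enolase, lay at 8.05, 9.50 and 11.51 against 12.10, 12.08, 11.67, 11.77 and 11.91 (-2.32, SE 0.64, adjusted p = 0.00431).

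Pfkp (-1.47, SE 0.38) and Aldoa (-1.02, SE 0.20), enzymes of the upper part of glycolysis, and Ldhb, the lactate dehydrogenase chain of oxidative tissue (-1.07, SE 0.25), fell, as did Pdk2, a kinase that shuts off pyruvate dehydrogenase (-1.46, SE 0.37). The other rise was Pfkfb3, which makes an activator of glycolysis (0.47, SE 0.15). In the pentose phosphate pathway 2 of 9 rose, 1 fell and 6 did not pass (median 0.27), and these rises were lost without adult array 3 or 4 while 6 rose without tumour 5. The first array series gave 4 rises and 1 fall and the second neither. The rises were Pgd (0.55, SE 0.20) and Tkt (0.36, SE 0.13), with adjusted p of 0.0992 and 0.0764 without adult array 3, and Pgd was at -0.02 within the second array series. The fall there was H6pd (-0.77, SE 0.16).

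Of 25 genes of the tricarboxylic acid cycle and its side reactions 4 rose, 18 fell and 3 did not pass (median -0.37; 4 and 18 without tumour 5, 4 and 14 in the first array series, 1 and 12 in the second), and 9 of the falls had no overlap. The isocitrate dehydrogenases split. Idh2, the mitochondrial enzyme that makes NADPH, lay at 9.31, 10.35 and 10.54 in the tumours and at 8.96, 9.02, 8.51, 8.98 and 8.78 in the adult arrays (1.34, SE 0.17, 2.53-fold, adjusted p = 2.79e-06), and Idh1, its cytosolic relative, rose by 1.09 (SE 0.27), as did the cytosolic aconitase Aco1 (0.76, SE 0.18). Idh3b, a subunit of the enzyme that makes NADH in the cycle, lay at 10.82, 11.04 and 11.51 against 11.98, 11.91, 11.88, 11.84 and 11.80 (-0.77, SE 0.09, adjusted p = 1.99e-06). Ogdhl (-1.50, SE 0.46) and the malic enzyme Me3 (-1.21, SE 0.29) fell more, with overlap through tumour 5. Mdh1, the cytosolic malate dehydrogenase, fell by 0.83 (SE 0.12) with none.

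Serine and one-carbon metabolism feeds nucleotide synthesis: of 23 tested 9 rose, 5 fell and 9 did not pass (5 too dim, median 0.19; 10 and 5 without tumour 5, 9 and 4 in the first array series, 3 and 2 in the second). Psat1, an enzyme of serine synthesis, lay at 10.06, 11.39 and 11.78 in the tumours and at 9.74, 9.74, 9.93, 9.70 and 9.94 in the adult arrays (1.43, SE 0.22, adjusted p = 2.32e-05). The serine hydroxymethyltransferases Shmt1 (1.82, SE 0.31) and Shmt2 (1.01, SE 0.31) and the folate enzymes Mthfd2l (1.59, SE 0.25) and Mthfd2 (1.21, SE 0.32) rose with overlap through tumour 5. Gldc, which breaks down glycine (-0.98, SE 0.20, no overlap), Cbs (-1.20, SE 0.39) and the glycine transporter Slc6a9 (-1.03, SE 0.34) fell.

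**Figure D3:**
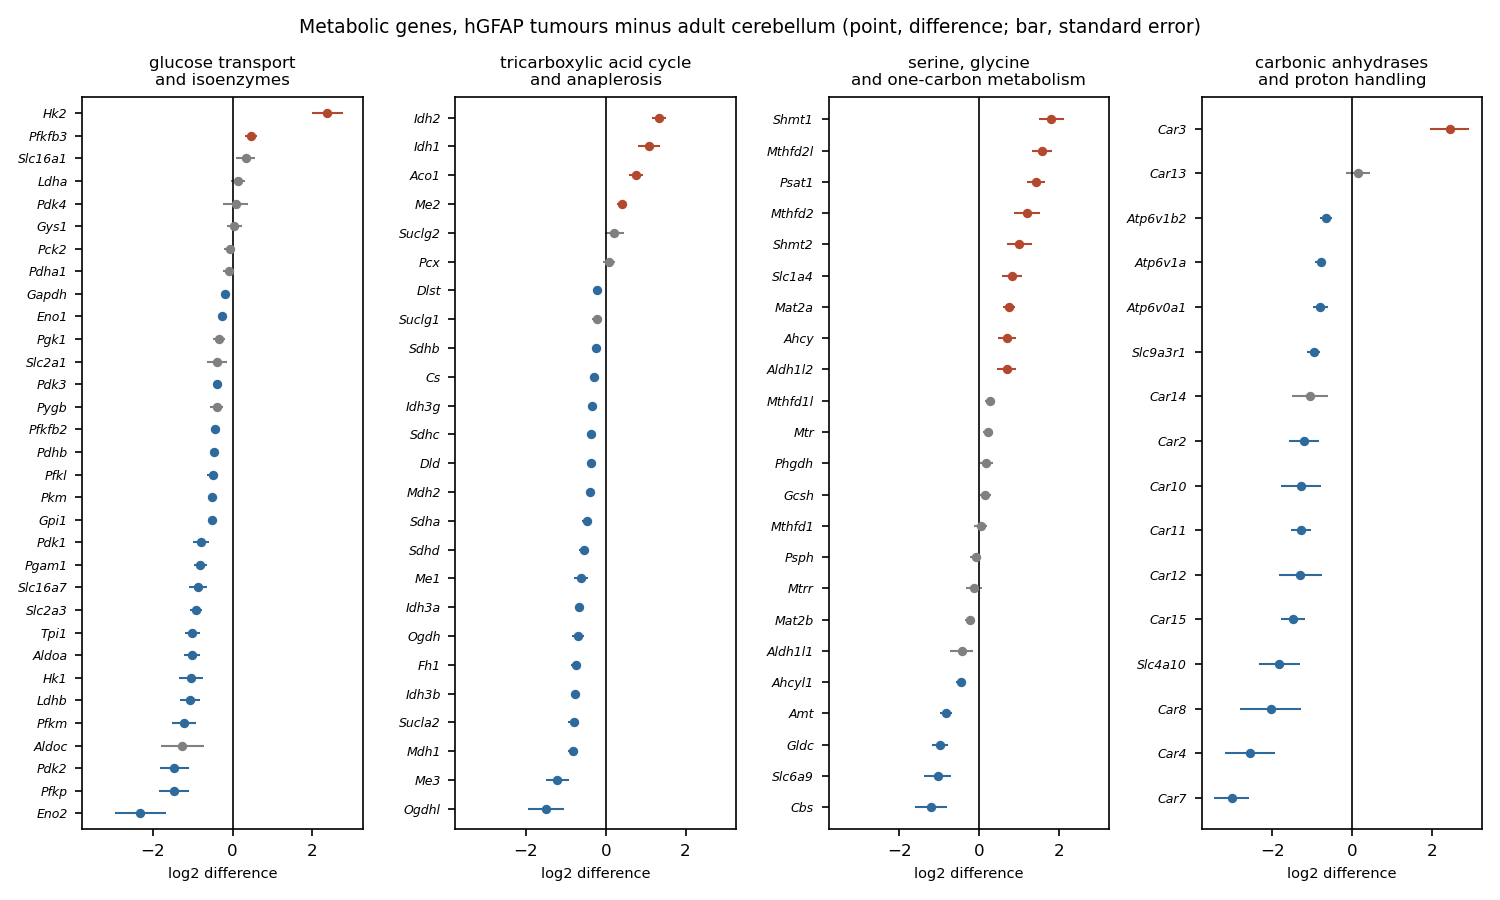
Log2 difference of hGFAP tumours minus adult cerebellum for the tested genes of 4 metabolic lists (points; bars are standard errors; red, higher; blue, lower; grey, not passed). Most genes of glucose use, of the tricarboxylic acid cycle and of the carbonic anhydrases lie below 0, with Hk2 (2.37), Idh2 (1.34) and Car3 (2.45) at the top, and the one-carbon genes spread to both sides.

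In amino acid metabolism 3 of 24 rose, 11 fell and 10 did not pass (7 too dim, median -0.32; 3 and 12 without tumour 5, 3 and 10 in the first array series, 1 and 6 in the second). Among the rises were enzymes of proline synthesis: Pycr1, its last enzyme, lay at 7.03, 9.29 and 10.47 in the tumours and at 6.71, 6.69, 7.49, 6.46 and 6.48 in the adult arrays (2.42, SE 0.40, 5.36-fold, adjusted p = 4.91e-05), and Aldh18a1, its first, rose by 1.01 (SE 0.27). Tumour 5 lay inside the adult range for Pycr1 and below it for Aldh18a1. The third rise, Bcat1, which transfers amino groups of branched-chain amino acids (0.40, SE 0.12), lost its call without adult array 3 (adjusted p = 0.052). Beside Dao, the largest falls were those of the aspartate aminotransferase Got1 (-1.50, SE 0.36) and of Ddo, the oxidase of D-aspartate (-1.35, SE 0.34). Of 10 polyamine genes 2 rose, 2 fell and 6 did not pass (3 too dim, median 0.14; 5 and 2 without tumour 5, 4 and 2 in the first array series, 0 and 0 in the second, and 1 rise without adult array 3). Odc1, the first enzyme of polyamine synthesis, rose by 1.22 (SE 0.28). Mtap rose by 0.91 (SE 0.31; adjusted p = 0.0689 without adult array 3), and Azin2 (-1.01, SE 0.25) and the acetylating enzyme Sat2 (-0.62, SE 0.21) fell.

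Carbonic anhydrases and other genes of proton balance gave 1 rise, 13 falls and 2 genes that did not pass among 16 tested (3 too dim, median -1.24; 1 and 14 without tumour 5, 1 and 10 in the first array series, 0 and 7 in the second), and 7 of the falls had no overlap. Car7 lay at 6.58, 7.72 and 8.90 in the tumours and at 10.79, 11.13, 10.65, 10.55 and 10.43 in the adult arrays (-3.02, SE 0.43, 8.11-fold, adjusted p = 9.98e-06). Car4, which is bound to the outer membrane of vessels and neurons, lay at 7.73, 9.75 and 11.23 against 12.16, 12.17, 12.39, 12.04 and 11.95 (-2.55, SE 0.63), and Slc4a10, a bicarbonate transporter of neurons, fell by 1.82 (SE 0.51). Car8, a relative without enzyme activity in Purkinje cells (-2.04, SE 0.77), lost its call without tumour 1, 7 or 8 or adult array 1 or 4 at an adjusted p up to 0.0597. Car3, best known from muscle and fat, was the rise, at 6.24, 8.48 and 9.29 against 5.73, 5.52, 5.40, 5.71 and 5.81 (2.45, SE 0.49, adjusted p = 0.000288).

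Among 15 genes of creatine and energy buffering 1 rose, 7 fell and 7 did not pass (3 too dim, median -0.37; 2 and 7 without tumour 5, 1 and 7 in the first array series, 0 and 3 in the second). Ckmt1, the mitochondrial creatine kinase (-2.23, SE 0.59), and the adenylate kinase Ak1 (-1.21, SE 0.30) fell with no overlap, and Gamt, which makes creatine, rose by 1.00 (SE 0.34) with tumour 5 below the adult arrays. Nmnat2, which makes NAD in axons, fell by 0.95 (SE 0.20).

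Of 30 genes of fatty acid synthesis and elongation 4 rose, 15 fell and 11 did not pass (2 too dim, median -0.35; 7 and 15 without tumour 5, 4 and 9 in the first array series, 1 and 6 in the second). The core enzymes Acaca and Fasn rose. Acaca, which makes malonyl-CoA, lay at 8.80, 9.11 and 9.41 in the tumours and at 8.38, 8.43, 8.34, 8.31 and 8.70 in the adult arrays (0.65, SE 0.10). Fasn rose by 0.55 (SE 0.11), and neither gene overlapped. Acsl5, which activates fatty acids, rose by 0.60 (SE 0.16). The desaturase Scd3 (-1.68, SE 0.31), the desaturase relative Fads6 (-1.62, SE 0.25) and Thrsp (-1.37, SE 0.24) fell with no overlap. In fatty acid oxidation 3 of 22 rose, 5 fell and 14 did not pass (4 too dim, median -0.03). Without tumour 5 there were 7 rises and 4 falls, and without tumour 1, 2, 3, 4 or 8 or adult array 2 or 4 there were 3 falls. The first array series gave 1 rise and 3 falls and the second no rise and 2 falls. The coactivator Ppargc1b, which drives mitochondrial genes, lay at 6.00, 6.79 and 8.59 against 9.26, 9.33, 9.50, 9.91 and 9.26 (-2.40, SE 0.42, adjusted p = 9.29e-05), and its relative Ppargc1a fell by 1.25 (SE 0.43) with overlap. Acadvl, which starts the oxidation of long chains, fell by 0.51 (SE 0.09). The rises were Eci2 (0.69, SE 0.20), Hadh (0.45, SE 0.15) and the carnitine carrier Slc25a20 (0.29, SE 0.10). Hadh lost its call without adult array 3 (adjusted p = 0.0524) and Slc25a20 without adult array 2 or 4 (adjusted p up to 0.0596).

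Of 34 genes of lipid transport and sphingolipids 8 rose, 12 fell and 14 did not pass (5 too dim, median -0.23; 11 and 14 without tumour 5, 7 and 12 in the first array series, 4 and 5 in the second), and 9 of the falls had no overlap. The receptors for sphingosine 1-phosphate went apart. S1pr3 lay at 7.52, 9.37 and 9.90 in the tumours and at 6.55, 6.93, 6.93, 7.05 and 7.35 in the adult arrays (2.26, SE 0.25, 4.78-fold, adjusted p = 1.03e-06), whereas S1pr1, which is strong in endothelium and astrocytes, lay at 7.44, 7.94 and 8.79 against 9.39, 9.29, 9.26, 9.39 and 8.82 (-1.23, SE 0.26, 2.34-fold, adjusted p = 0.000549). Neither overlapped. Lpl, which frees fatty acids from lipoproteins and is also a gene of activated microglia (2.16, SE 0.33), and the cholesterol exporter Abca1 (1.39, SE 0.17) rose. The fatty acid carrier Fabp3 (-1.80, SE 0.30) and the ceramide synthase Cers6 (-1.70, SE 0.37) fell with no overlap. The sterol exporter Abcg4 (-1.38, SE 0.26) fell with overlap.

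In the iron and haem list 4 of 24 rose, 7 fell and 13 did not pass (9 too dim, median -0.10; 5 and 7 without tumour 5, 4 and 2 in the first array series, 3 and 5 in the second). Beside Lcn2 the rises were Cp, the copper protein that oxidises iron for export, at 9.04, 10.54 and 10.99 in the tumours and 7.86, 8.16, 7.96, 7.95 and 8.51 in the adult arrays (2.33, SE 0.25, adjusted p = 5.79e-07), Slc11a1, an iron transporter of macrophage vesicles (1.59, SE 0.32), and Hmox1, which breaks down haem (1.33, SE 0.26). Steap2, an iron reductase, fell by 1.78 (SE 0.37). Alas1, the first enzyme of haem synthesis, fell by 0.51 (SE 0.12). Alad, the next enzyme (-0.66, SE 0.26), lost its call without tumour 1, 2, 7 or 8 or adult array 2 or 5 at an adjusted p up to 0.0998. In the antioxidant systems 8 of 35 rose, 11 fell and 16 did not pass (7 too dim, median -0.20; 11 and 12 without tumour 5, 8 and 10 in the first array series, 4 and 6 in the second). Gpx3, a secreted glutathione peroxidase (1.90, SE 0.51), Prdx4, a peroxiredoxin of the secretory pathway (1.60, SE 0.21), and Txnrd1 (1.04, SE 0.19) rose, and the microsomal transferase Mgst3 fell by 1.58 (SE 0.24), as did the glutathione transferases Gsta4 (-1.14, SE 0.25) and Gstm7 (-0.81, SE 0.19).

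The paired enzymes of glucocorticoid handling moved in opposite directions. Hsd11b2, which inactivates the hormone, lay at 7.38, 11.14 and 11.62 in the tumours and at 5.53, 5.25, 5.39, 5.16 and 5.62 in the adult arrays (5.25, SE 0.47, 38.1-fold, adjusted p = 7.85e-08). Hsd11b1, which regenerates it, lay at 6.21, 6.76 and 7.76 against 9.04, 9.47, 8.67, 8.56 and 9.08 (-2.12, SE 0.26, 4.36-fold, adjusted p = 2.25e-06). Fkbp5, a co-chaperone that the glucocorticoid receptor induces, lay at 7.34, 8.05 and 8.47 against 7.00, 6.99, 6.08, 6.52 and 6.48 (1.38, SE 0.17, adjusted p = 2.63e-06), and its highest tumour value was that of tumour 5. None of the 3 overlapped. Other genes of the list went against Fkbp5. Without tumour 5 Fkbp5 was at 1.32, whereas Tsc22d3 (-0.85) and Per1 (-1.11) were called lower and Sgk1 (-0.42) did not pass. Activity of the glucocorticoid receptor was not tested. The list of 15 gave 4 rises, 6 falls and 5 genes that did not pass (8 too dim, median -0.33; 5 and 7 without tumour 5, 4 and 6 in the first array series, 2 and 5 in the second), and the falls included Cyp46a1, which turns cholesterol over in neurons (-1.59, SE 0.30), and Dio2, which activates thyroid hormone (-1.17, SE 0.20). Srd5a1, which reduces steroids, rose by 0.90 (SE 0.32).

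Of 28 endothelial genes 4 rose, 8 fell and 16 did not pass (9 too dim, median -0.25; 4 and 10 without tumour 5, 3 and 14 in the first array series, 2 and 2 in the second), with 2 rises without adult array 3 and 5 falls without adult array 5. Sox18, a transcription factor of growing vessels, lay at 6.50, 9.67 and 10.01 in the tumours and at 6.72, 6.21, 7.35, 6.86 and 6.90 in the adult arrays (2.47, SE 0.48, 5.56-fold, adjusted p = 0.000211), the 7 tumours other than tumour 5 all above the adult range. Slc7a5, the amino acid transporter of the blood-brain barrier and of growing cells, rose by 1.14 (SE 0.17). Ocln, a tight junction protein, lay at 5.76, 6.46 and 7.34 against 7.86, 8.21, 8.25, 8.13 and 8.23 (-1.58, SE 0.30, 2.99-fold, adjusted p = 0.000166), and Flt1, a receptor for Vegfa, fell by 0.94 (SE 0.20), neither with overlap. The phosphatase Ptprb fell by 0.74 (SE 0.18) with overlap. Aplnr, the receptor of apelin (0.59, SE 0.24), lost its call without tumour 1, 2, 4, 7 or 8 or adult array 1, 2, 3 or 5 at an adjusted p up to 0.102.

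Of 11 genes of pericytes and smooth muscle 2 rose, 5 fell and 4 did not pass (9 too dim, median -0.36; 3 and 5 without tumour 5, 2 and 6 in the first array series, 0 and 0 in the second, and 3 falls without adult array 3 or 4). Cspg4 (NG2), which pericytes share with oligodendrocyte precursors, rose by 1.09 (SE 0.26), as did Cald1 (0.85, SE 0.23), and Vtn, a gene of pericytes, fell by 0.96 (SE 0.24). Acta2, the actin of smooth muscle (-1.02, SE 0.36), lost its call without adult array 3 or 4 (adjusted p up to 0.0959). These are the C57BL/6 arrays, and with strain as a covariate the difference was -0.35 (limma adjusted p = 0.429). Of 27 genes of fibroblasts and meninges 8 rose, 5 fell and 14 did not pass (9 too dim, median 0.41). Without tumour 5 there were 13 rises and 5 falls, and without tumour 1 or 2 or adult array 1 there were 3 falls. Separately, the array series gave 7 and 4 in the first and 5 and 2 in the second. Mfap4, a microfibril protein, lay at 7.50, 9.56 and 10.16 against 6.89, 7.51, 7.25, 7.37 and 7.48 (2.05, SE 0.43), and the matrix protein Fbln2 (1.21, SE 0.21) and the collagen Col3a1 (0.47, SE 0.14) rose too. The meningeal genes Ogn (-1.72, SE 0.32), Fmod (-1.52, SE 0.36) and Slc22a6 (-1.68, SE 0.20) fell with no overlap. Ptgds, which makes prostaglandin D (-1.80, SE 0.72), lost its call without tumour 1, 2 or 7 or any single adult array at an adjusted p up to 0.0827.

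Of 16 basement membrane genes tested 9 rose, 2 fell and 5 did not pass (13 too dim, median 0.45; 9 and 3 without tumour 5, 6 and 2 in the first array series, 7 and 1 in the second, and 1 fall without tumour 1, 2 or 7 or adult array 1, 4 or 5). Lama5, a laminin chain, lay at 6.81, 8.45 and 9.57 in the tumours and at 6.09, 5.83, 6.31, 6.60 and 6.38 in the adult arrays (2.09, SE 0.36, 4.27-fold, adjusted p = 7.66e-05). Smoc1, a matricellular protein that is also a marker of oligodendrocyte precursors, rose by 2.29 (SE 0.32), Lama1, a chain of early basement membranes, by 1.18 (SE 0.19) and Col4a1, the main collagen of vessel membranes, by 0.82 (SE 0.17). None of these 4 overlapped, although for Col4a1 tumour 5 and the highest adult array both rounded to 6.42. Lamb1, a laminin beta chain, went down (-0.73, SE 0.14). Fras1 (-0.40, SE 0.16) did too and lost its call without tumour 1, 2, 3, 6 or 7 or adult array 1, 4 or 5 at an adjusted p up to 0.164.

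In the brain matrix 5 of 21 genes rose, 6 fell and 10 did not pass (16 too dim, median 0.07; 6 and 6 without tumour 5, 5 and 5 in the first array series, 3 and 2 in the second). These shares, 23.8% and 28.6%, were near the 24.2% and 29.8% over all genes. The proteoglycan of the developing brain Ncan lay at 8.65, 10.41 and 10.82 in the tumours and at 8.32, 8.25, 7.55, 7.61 and 8.16 in the adult arrays (2.27, SE 0.26, 4.81-fold, adjusted p = 1.11e-06), and Has2, which makes hyaluronan, rose by 1.54 (SE 0.20). Hapln4, a link protein of mature perineuronal nets, lay at 5.53, 6.56 and 9.01 against 9.60, 9.36, 9.33, 9.34 and 9.39 (-2.37, SE 0.49, 5.16-fold, adjusted p = 0.000399). The testicans Spock3 (-2.41, SE 0.54) and Spock1 (-2.31, SE 0.52) fell too.

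Of 31 matrix proteases and inhibitors 13 rose, 8 fell and 10 did not pass (10 too dim, median 0.25; 15 and 9 without tumour 5, 12 and 8 in the first array series, 9 and 4 in the second). Serpina3n, a serine protease inhibitor of reactive astrocytes, lay at 10.89, 11.26 and 12.25 in the tumours and at 8.31, 8.65, 9.29, 8.20 and 8.56 in the adult arrays (2.73, SE 0.39, 6.61-fold, adjusted p = 1.24e-05), and tumour 5 was high as well, at 11.02. The gelatinase Mmp2 (2.13, SE 0.38) and its activator Mmp14 (1.25, SE 0.29) rose together with the inhibitor Timp1 (1.62, SE 0.29), with tumour 5 within the adult range in each. Adamts2, a collagen-trimming protease, fell by 1.54 (SE 0.20), and Mmp17 (-1.49, SE 0.26) and Adamts3 (-1.44, SE 0.33) fell as well.

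**Figure D4:**
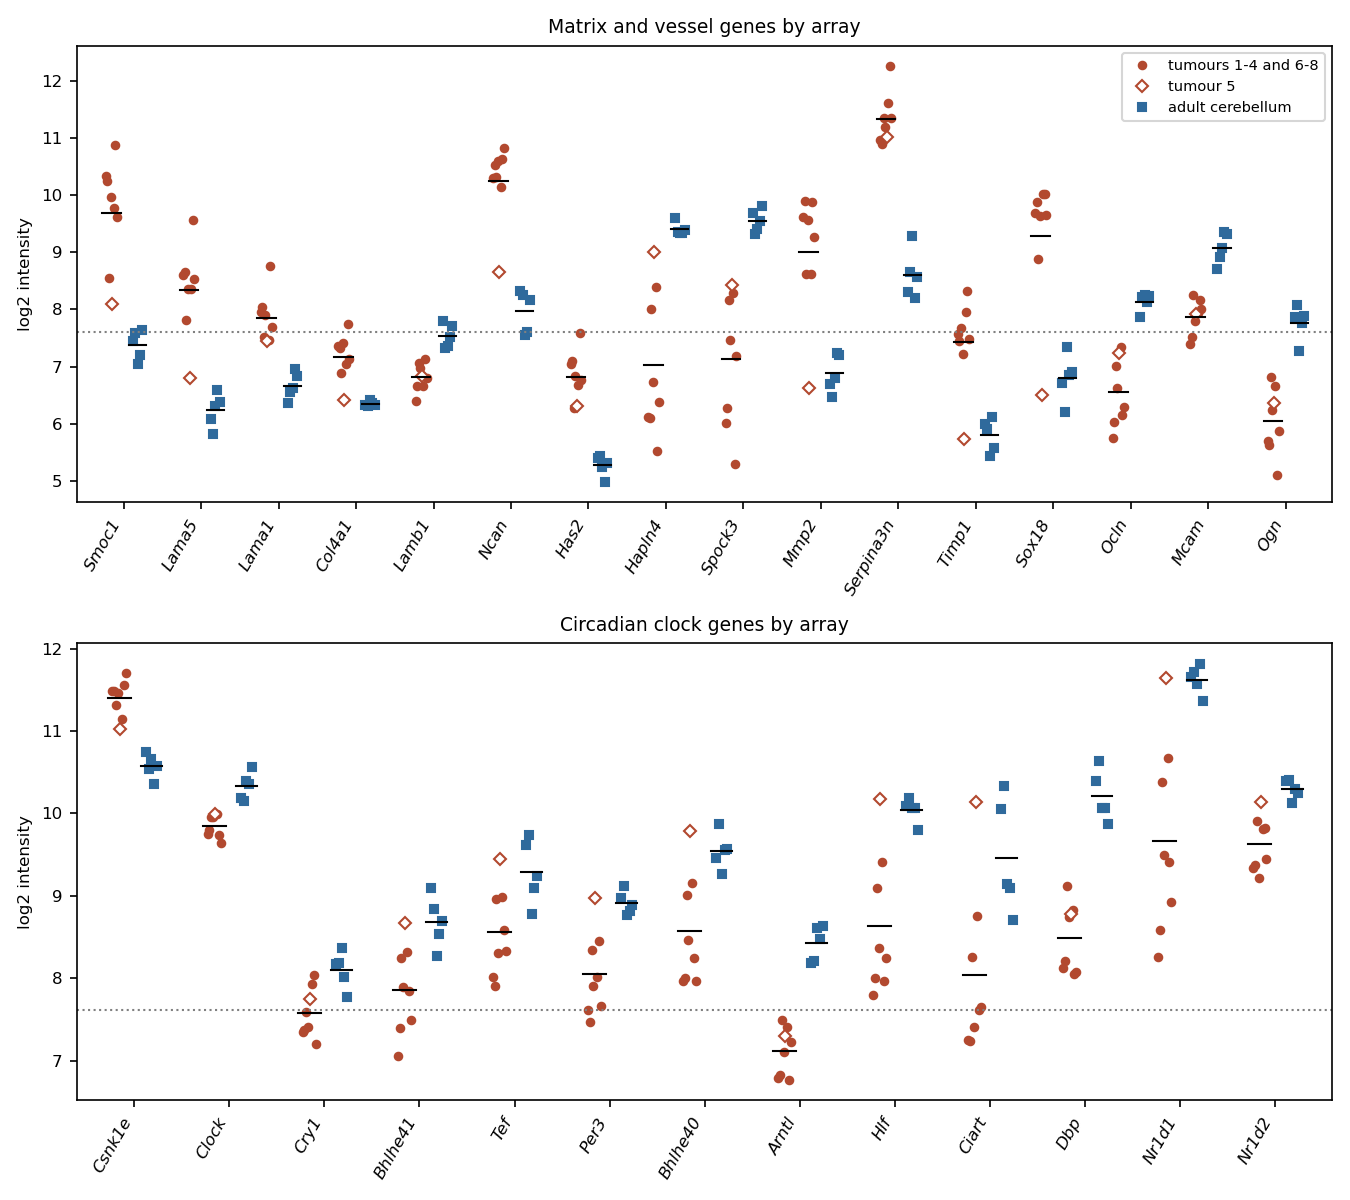
Log2 intensity in each array of 16 matrix and vessel genes (top) and of 13 circadian clock genes (bottom): filled circles, tumours 1 to 4 and 6 to 8; open diamonds, tumour 5; squares, adult arrays; horizontal bars, group means; dotted line, 7.61. Smoc1, Lama5, Ncan and Serpina3n are higher in every tumour, Hapln4, Spock3, Ocln and Ogn lower in every tumour, and of the clock genes Arntl, Dbp and Clock are lower and Csnk1e higher in every tumour.

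All 19 tested genes of microglia and macrophages rose (4 too dim, median 1.91), with and without tumour 5, and 18 rose in the first array series and 15 in the second. A gene dim in adult cerebellum was tested only if other arrays were bright, so this count leans on the filter. Among the 4 too dim, the tumour medians of Tmem119 (6.73) and Cd163 (4.79) lay within the adult ranges (6.34 to 7.23 and 4.48 to 5.08). Those of Aif1 (6.86) and Cd14 (6.08) lay above them (4.79 to 5.46 and 4.98 to 5.78). Gpnmb, a glycoprotein of lipid-laden and tumour-associated macrophages, lay at 8.25, 11.45 and 11.83 in the tumours and at 6.34, 6.53, 4.86, 5.89 and 6.18 in the adult arrays (5.07, SE 0.42, 33.5-fold, adjusted p = 3.27e-08). Lyz2, the lysozyme of macrophages, rose by 3.89 (SE 0.53), the protease inhibitor Cst7 by 3.03 (SE 0.46), Spp1, or osteopontin, by 2.94 (SE 0.50) and C1qc by 2.86 (SE 0.35), while Cx3cr1, a gene of resident microglia, rose by 1.42 (SE 0.36). Relative to the adult mean the list's mean was 2.42 to 2.56 in 7 tumours, 0.31 in tumour 5 and -0.31 to 0.38 in the adult arrays.

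In the lysosome and autophagy list 14 of 35 rose, 9 fell and 12 did not pass (2 too dim, median 0.12; 15 and 8 without tumour 5, 15 and 6 in the first array series, 9 and 4 in the second). The rises were led, after Gpnmb, by the cathepsins Ctsc (2.42, SE 0.40), which lay at 9.92 in the median tumour against 6.63 to 7.83 in the adult arrays, and Ctss (2.23, SE 0.32). The falls were led by Gaa, which breaks down glycogen (-0.90, SE 0.26), the cathepsin Ctsf (-0.73, SE 0.16) and the sialidase Neu1 (-0.54, SE 0.11). The part of macrophage content in these rises and in the integrin, protease and phagocyte receptor lists was not tested. Of the neutrophil and monocyte list 1 gene was bright enough, Csf3r, which rose by 1.47 (SE 0.35) and did not pass within the second array series (adjusted p = 0.0656). In the same list 16 genes were too dim, among them S100a8 and S100a9. Of the markers of T, B and NK cells 16 were too dim and the only tested gene, Ighm, which did not pass, lay at 5.40, 6.15 and 6.97 in the tumours and from 5.36 to 7.80 in the adult arrays. Of the red blood cell markers 3 were too dim, and Bpgm did not pass (-0.35) but fell without tumour 2 or 7 or adult array 3.

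Among the markers of other brain cells, the 6 tested genes of choroid plexus and ependyma (8 too dim, median -1.16) held 1 fall, Kcnj13 (-2.49, SE 0.79), which was in neither array series alone and was joined by 1 rise without tumour 5, and varied by sample in both groups: Ttr ran from 5.29 to 12.67 in the tumours and from 5.52 to 13.23 in the adult arrays. Of 16 genes of astrocytes and Bergmann glia 1 rose, 5 fell and 10 did not pass (median -0.42). Without tumour 5 there were 3 rises and 7 falls, and without tumour 1 or 2 or adult array 1, 2 or 4 there were 3 falls. Each array series gave 1 rise and 1 fall. The rise was Gfap, an intermediate filament of reactive astrocytes and the gene whose human promoter drives the Cre, at 10.60, 11.20 and 11.77 in the tumours and 8.80, 9.03, 8.14, 8.81 and 8.99 in the adult arrays (2.41, SE 0.35, adjusted p = 1.5e-05). Hopx, a gene of Bergmann glia, fell by 1.47 (SE 0.31). Gja1, the gap junction protein of astrocytes (-1.10, SE 0.44), lost its call without tumour 1, 2 or 7 or adult array 1, 2, 4 or 5 at an adjusted p up to 0.0823, and Gdf10 is given with the BMP ligands. Of 12 myelin genes none rose, 7 fell and 5 did not pass (1 too dim, median -1.09; 8 falls without tumour 5, 3 in the first array series and none in the second), for example Ermn (-1.91, SE 0.58), Mag (-1.68, SE 0.55) and Aspa (-1.34, SE 0.44), all with overlap.

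The order of the 8 tumours was similar for some lists and different for others. In the myelin, carbonic anhydrase and calcium handling lists tumours 7 and 1 were lowest and tumours 3, 5 and 6 highest. The means of the microglia list were nearly level in all tumours but tumour 5. Those of the myelin list ran from -2.25 in tumour 7 and -1.72 in tumour 2 to -0.19 in tumour 3 and 0.03 in tumour 6, those of carbonic anhydrases from -2.07 in tumour 7 to -0.41 in tumour 3, and those of calcium handling from -1.74 in tumour 7 to -0.07 in tumour 5. The one-carbon list was highest in tumour 2 (0.51) and lowest in tumour 5 (-0.22), and the basement membrane list highest in tumour 7 (0.96).

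Tumour 5 did not sit with the adult arrays in every gene. It was above all adult arrays for Lcn2, Serpina3n, Gfap, Fkbp5, Adgrg1, Scn3a, Sdk1 and Igsf9, and below all of them for Dbp, Arntl, Flt3, Car7 and Hsd11b1. The 10 genes with the largest spread among the tumours were Ttr (SD 2.80), Xist, Glra1, Eif2s3y, Ppp1r17, Nefl, Gabra6, H2ab3, Dgkg and Lamp5. Of these Xist, the RNA of the inactive X chromosome, was at 11.93 in 1 tumour and at 4.07 to 5.65 in the other 7, and at 4.57, 4.58, 11.33, 11.46 and 11.58 in adult arrays 1 to 5. The Y-linked Eif2s3y was at 4.06 in 1 tumour and at 9.26 to 10.41 in the other 7, and at 9.89 or more in adult arrays 1 and 2 and 4.47 or less in adult arrays 3 to 5. The sexes recorded by these genes were thus unevenly spread over the groups, and their part in the differences was not tested.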

How the data were processed

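The authors deposited log2 intensities of 24 Affymetrix mouse gene arrays for 241576 probe sets, made by RMA with the oligo package (version 1.14, R 2.15), per the submitters' processing notes. Of these probe sets 213361 carried 1 gene symbol in the platform annotation and were combined into 20893 genes by median polish, while 5107 with several symbols and 23108 with none were left out. Symbols were updated through RefSeq for 2309 genes. Genes with at least 3 of 24 arrays above the table's median of 7.61 were tested with limma 3.58.1 (R 4.3.3, lmFit and eBayes) on all 24 arrays in 4 groups, with Benjamini-Hochberg adjustment over all tested genes at 0.05. The titles call the tumours biological replicates, but the labels do not say that they came from separate litters. Adult arrays 1 and 2 are titled only as replicates, so their spread may be in part technical. P-values use the spread pooled over the 4 groups, of which the developing one mixes embryonic days 15 and 18 with postnatal day 0. A fit of the 13 arrays alone gave 2401 rises and 3212 falls. The number of arrays limits the precision. The gene lists and the genes named were chosen with earlier results of these data known. Genes named are Gnas, the 25 largest called rises and 25 largest called falls without overlap outside the cell cycle, hedgehog and mature neuron lists (unnamed gene models, small RNAs and receptor or immunoglobulin segments left out), the 10 most variable genes among the tumours, and in each other list at least the 3 largest called rises and falls. Simulated data in which 200 genes had known changes were used to test the fit. Promoter sequences are RefSeq's (GRCm38.p6). The arrays were fitted without pairing. Deviations of same-numbered tumour and adult arrays correlated at 0.033 for number 1 and 0.0414 for number 2. In both cases the arrays came from different array series, so these values cannot settle whether any arrays were paired.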

Additional observations from a re-analysis of the deposited data

Results flagged for a closer look

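In 91 of 307 genes described, 1 tumour stood apart from the other 7 by Dixon's test, which chance does in about 1 group in 20. Tumour 5 stood apart as the lowest in 82 of them. The log2 levels in tumour 5 were Aco1 (8.52), Adgra3 (7.92), Adgre1 (6.21), Aldh18a1 (8.39), Atoh1 (6.62), C1qc (6.92), Calcrl (5.87) and Cald1 (8.14). Further low values were Cd24a (8.46), Cd53 (6.64), Cd63 (7.80), Cd9 (6.90), Chrna3 (7.68), Clec7a (4.23), Cp (9.04) and Csf3r (5.28). Also low were Cst7 (6.03), Ctsc (7.20), Ctss (7.34), Cx3cr1 (6.60), Dcc (8.44), Ddr2 (6.82), Draxin (7.53) and Dusp4 (4.43). They also included Edem1 (8.23), Egfr (7.74), Fcer1g (8.07), Fcgr2b (5.70), Gamt (6.59), Gpnmb (8.25), Hadh (10.14) and Hk2 (5.64). Further low values were Hmox1 (6.52), Hsd11b2 (7.38), Id3 (6.75), Idh1 (8.32), Igfbpl1 (5.84), Inpp5d (7.09), Insm1 (8.42) and Itga9 (6.00). Also low were Itgam (6.05), Itgb1 (7.56), Itgb2 (6.48), Khdrbs3 (7.30), Lcn2 (10.01), Lgals9 (7.74), Lpl (5.52) and Lrig3 (7.13). They also included Lyz2 (7.59), Mfap4 (7.50), Mki67 (6.87), Mmp2 (6.63), Mtap (8.09), Mthfd2l (7.79), Ncan (8.65) and Ncapg (5.46). Further low values were Neurod4 (6.72), Nhlh1 (7.44), Nr2c1 (7.79), Olig3 (4.79), Pdgfra (8.05), Pfkfb3 (7.34), Pgd (8.71) and Pros1 (5.54). Also low were Ptbp1 (9.74), Ptbp3 (9.69), S1pr3 (7.52), Shmt2 (7.54), Slc11a1 (6.30), Sox11 (7.77), Sox18 (6.50) and Spp1 (8.51). They also included Srd5a1 (6.10), Sstr2 (7.36), St6gal1 (7.56), Tgfb2 (7.14), Tgfbr1 (6.57), Timp1 (5.74), Tnfrsf1a (6.76) and Tox3 (8.23). Further low values were Ube2c (8.20) and Vcam1 (7.39). The other levels that stood apart were Adgrl1 in tumour 5, highest (11.33), Celf4 in tumour 7, lowest (8.91), Crabp2 in tumour 3, highest (6.55), Fasn in tumour 7, highest (10.83), Hspa1a in tumour 7, highest (6.58), Lama1 in tumour 7, highest (8.76), Nfkbia in tumour 7, highest (9.49), Ror1 in tumour 7, lowest (7.31) and Vldlr in tumour 7, lowest (8.41). 

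Among the 5 adult arrays 19 genes had an array that stood apart in this way, nearer the chance rate. Adult array 1 was lowest for Stat5b (8.34). Adult array 1 was highest for Hapln4 (9.60). Adult array 2 was lowest for Itgb2 (5.41). Adult array 3 was lowest for Ckmt1 (10.04), Gfap (8.14), Gja1 (10.61), Hadh (9.98), Lrig3 (6.20), Pdgfa (8.95), Pdgfra (7.12), Ppargc1a (9.91) and Vcam1 (7.48). Adult array 3 was highest for Pycr1 (7.49) and Shmt2 (8.97). Adult array 4 was highest for Mmp17 (8.12). Adult array 5 was lowest for Ryr1 (7.73) and S1pr1 (8.82). Adult array 5 was highest for Adgre1 (5.91) and Hsp90ab1 (12.73).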

How the results depend on the processing

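The counts of 2659 rises and 3277 falls were within 1.5 times under most alternatives and moved further under 3. A stricter filter, which tests fewer genes, gave 1572 and 1826. The second array series alone, with fewer arrays, gave 1030 and 1648. A 2-fold minimum gave 1011 and 932. Leaving out 1 array at a time gave 2354 to 3599 rises and 2980 to 3425 falls, with the most in both directions without tumour 5. The replicate number as a block gave 2568 rises and 2695 falls, although pairing by number was not established. Centring each array on its median moved the median difference of all genes from -0.02 to -0.11 and gave 2307 rises and 3783 falls, a share of 37.9% rises among the calls against 44.8%. With strain as a covariate the counts were 2018 and 2929. Of 307 genes whose difference is given, 306 were called and 305 of these kept their direction in every setting. The exception was Pgd, at -0.02 within the second array series. The call held in every setting for 150 genes. It was lost by 148 within the second array series, by 26 with strain as a covariate and by 23 without an array other than tumour 5. Those lost with strain were Acsl5, Acta2, Bcat1, Car8, Dnaja1, Eci2, Fras1, Gamt, Gdf10, Gja1, Hadh, Hsf1 and Hsp90ab1. The others were Id4, Mtap, Nfkbia, Nr2c1, Nrg3, Pfkfb3, Pgd, Psma1, Psme2, Ptgds, Slc25a20, Srd5a1 and Tkt. The cause was not tested. Differences with a side under 7.61 are limited by signal over background.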
